A study of Homo sapiens with 3 samples.

Results

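YAP1, WWTR1 (which encodes TAZ), the 4 TEAD transcription factors and 4 of their classical target genes, CCN1, CCN2, ANKRD1 and AMOTL2, were read in drug-naive lung adenocarcinoma cells. These 10 genes were chosen by name as effectors, factors and classical targets of the Hippo pathway, with earlier results of these data known. The lists of other pathway genes below were also chosen with those results known. All 10 genes had a row among the 60880 gene rows of the count file. The study set an anlotinib-resistant derivative of NCI-H1975 against the wild-type line and knocked down TFAP2A in resistant cells. The NCI-H1975 line comes from a human lung adenocarcinoma, and anlotinib is an inhibitor of several receptor tyrosine kinases. Values were used from 1 library, the wild-type RNA-seq replicate 2, made from 1 ug of total RNA of cells grown in medium with 10% fetal calf serum. Resistant cells, knockdown cells and the 2 wild-type ATAC-seq samples, which are known here by their labels, were not analysed here. With 1 library there was no comparison between cell states, no replicate spread and no test.

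The Hippo pathway is a kinase relay that controls tissue growth. MST kinases with their partner SAV1 activate LATS kinases with their MOB1 partners, and LATS phosphorylates the co-activators YAP and TAZ, which are then held in the cytoplasm by 14-3-3 proteins or degraded. Unphosphorylated YAP and TAZ enter the nucleus, where they lack a DNA-binding domain of their own and act through TEAD factors. Because this switch works on the proteins, transcript reads of YAP1 and WWTR1 record how much message is present and not how active the proteins are.

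TEAD factors recognise the letters GGAATG, or CATTCC on the other strand. CCN2 and ANKRD1 are the target members with a promoter entry in which these letters occur more than once, AMOTL2 is a target member with a single match before 1 of its 2 annotated starts, and YAP1 is the co-activator gene with a match before its own start. The 250 bases before each of these 4 starts are shown 5′ to 3′ along the gene, from RefSeq on build GRCh38.p14, with the GGAATG or CATTCC letters in capitals. They lie at chr6:131951373-131951622 (minus strand) for CCN2, at chr10:90921088-90921337 (minus strand) for ANKRD1, at chr3:134374448-134374697 (minus strand) for AMOTL2 and at chr11:102110197-102110446 (plus strand) for YAP1.
CCN2: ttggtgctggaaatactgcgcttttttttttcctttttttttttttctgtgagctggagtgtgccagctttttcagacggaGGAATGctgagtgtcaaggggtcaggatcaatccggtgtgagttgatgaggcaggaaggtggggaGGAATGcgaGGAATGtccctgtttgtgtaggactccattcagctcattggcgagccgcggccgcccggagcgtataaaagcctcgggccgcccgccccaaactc
ANKRD1: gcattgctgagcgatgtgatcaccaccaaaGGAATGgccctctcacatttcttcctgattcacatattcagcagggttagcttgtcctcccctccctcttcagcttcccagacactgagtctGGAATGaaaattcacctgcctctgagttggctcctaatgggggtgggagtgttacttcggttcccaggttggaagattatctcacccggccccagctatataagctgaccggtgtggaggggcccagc
AMOTL2: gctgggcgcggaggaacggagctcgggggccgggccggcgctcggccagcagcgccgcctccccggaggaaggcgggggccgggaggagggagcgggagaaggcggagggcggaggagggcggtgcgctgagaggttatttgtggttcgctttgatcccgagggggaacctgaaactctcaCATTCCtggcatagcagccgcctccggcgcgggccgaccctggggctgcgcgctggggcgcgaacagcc
YAP1: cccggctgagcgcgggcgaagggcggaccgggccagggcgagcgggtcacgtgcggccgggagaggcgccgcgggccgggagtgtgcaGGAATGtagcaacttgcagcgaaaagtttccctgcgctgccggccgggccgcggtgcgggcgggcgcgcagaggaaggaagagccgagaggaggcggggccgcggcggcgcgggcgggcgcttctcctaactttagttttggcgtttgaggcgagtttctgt

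Of the 10 members, 7 had at least 1 promoter entry, with 10 windows in all, and TEAD1, TEAD4 and CCN1 had none. The TEAD letters were found in 4 of these 10 windows, those shown above, and 11.9% of all 35116 promoter windows of the same length held them at least once. CCN2 held 3 matches, which began 169, 104 and 95 bases before its start, a number reached by 29 of all windows (0.0826%). ANKRD1 held 2 matches, which began 220 and 128 bases before the start, against 0.94% of all windows with at least 2. The single matches of YAP1 and AMOTL2 began 162 and 69 bases before their starts. No match was found in the windows of WWTR1, TEAD2 and TEAD3, which says only that these letters are not in those stretches.

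Letters of 2 other factor families were searched in the same windows. The AP-1 letters TGANTCA, which read the same on both strands and are bound by FOS and JUN dimers, occurred in 1 of the 10 member windows, that of ANKRD1, 195 bases before the start, and in 6.57% of all windows. The AP-2 letters GCCNNNGGC, which also read the same on both strands and are bound by the family of TFAP2A, the factor knocked down in the study, occurred in 5 of the 10 member windows and in 19.8% of all windows. They lay 25 bases before the start of CCN2, 183 before YAP1, 179 and 50 before the 2 starts of AMOTL2, and 114 before 1 start of TEAD2. No match of 1 motif overlapped a match of another in these windows. The printed YAP1 and AMOTL2 stretches were 72% and 73.6% G or C, and those of CCN2 and ANKRD1 were both 53.2%. A match of letters is a description and not a binding site, and no chromatin data were read here.

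**Figure D1:**
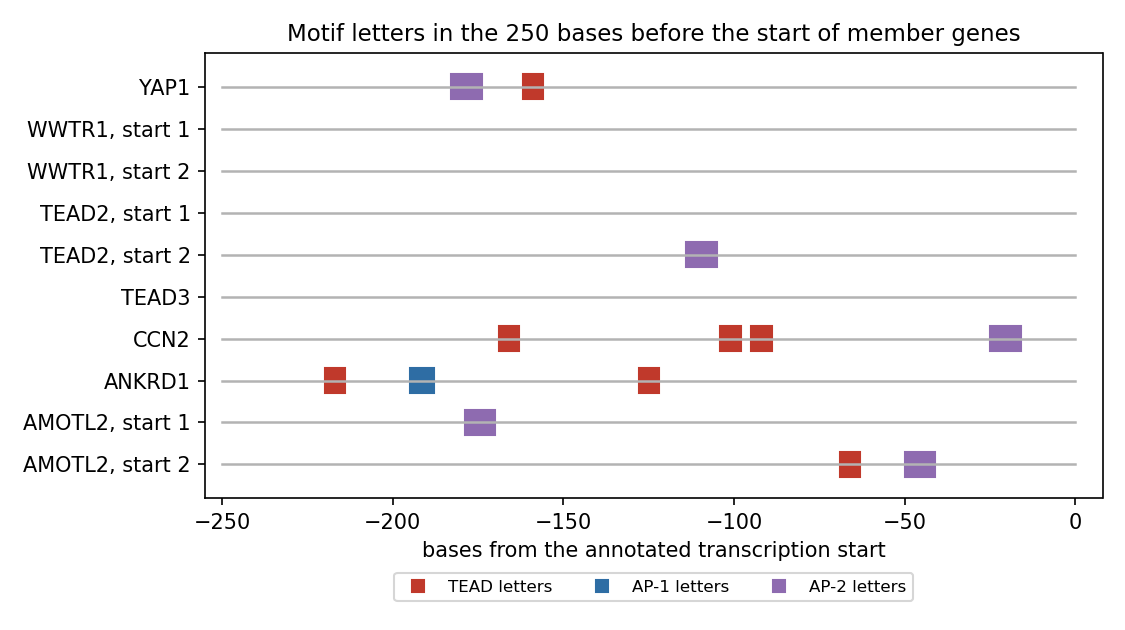
Positions of the TEAD, AP-1 and AP-2 letters (coloured boxes) in the 250 bases before each annotated start of the 7 member genes with a promoter entry, one line per start; the horizontal axis is the distance from the start in bases. CCN2 carries 3 TEAD boxes and ANKRD1 carries 2, and both windows of WWTR1, that of TEAD3 and 1 of TEAD2 carry no box of any of the 3 kinds.

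The library held 25012733 counts, so 1 count equalled 0.04 CPM (counts per 1000000 counts of the library), and 3 counts, taken as the upper limit for a gene at 0, equalled 0.12 CPM. A gene with at least 10 counts was called detected. Intervals are 95% intervals that cover counting error only. No transcript lengths of the build were used, so an order of genes by count or CPM is an order of reads and not of transcript molecules. All 7 genes listed as markers of lung adenocarcinoma were detected, of which the keratins, EPCAM and CDH1 mark epithelial cells in general. NKX2-1 had 2926 counts, EPCAM 4961 and KRT7 132533. NAPSA had 595, below the median of 654 counts of detected protein-coding genes. Of 15 listed markers of fibroblasts, endothelial cells and leukocytes, 14 had a row. The 5 fibroblast markers summed to 2 counts, with DCN, LUM, PDGFRA and THY1 at 0, the 4 endothelial markers with a row summed to 45, with CLDN5 and TIE1 at 0, and the 5 leukocyte markers summed to 36, with PTPRC at 2. KDR, with 35 counts, and VWF, with 10, were the endothelial markers that reached the minimum. CCN1 and CCN2 are also made by fibroblasts and endothelial cells, and the part of such cells in their counts was not tested.

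All 10 members were detected, beside 69.6% of 19216 protein-coding genes. Their counts ran over a wide range, with 52 for the lowest, a median of 1779 and 4251 for the highest. The median corresponded to 71.1 CPM, against 9.72 CPM over all protein-coding genes with a row and 26.1 CPM over the detected ones. Of the 10 members, 7 had at least 654 counts, the median of detected protein-coding genes, a level reached by 34.8% of all protein-coding genes. CCN2 fell just short of it, and TEAD4 and ANKRD1 lay clearly below. Together the 10 genes took 18274 counts, or 0.0731% of the library (0.0720 to 0.0741).

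**Figure D2:**
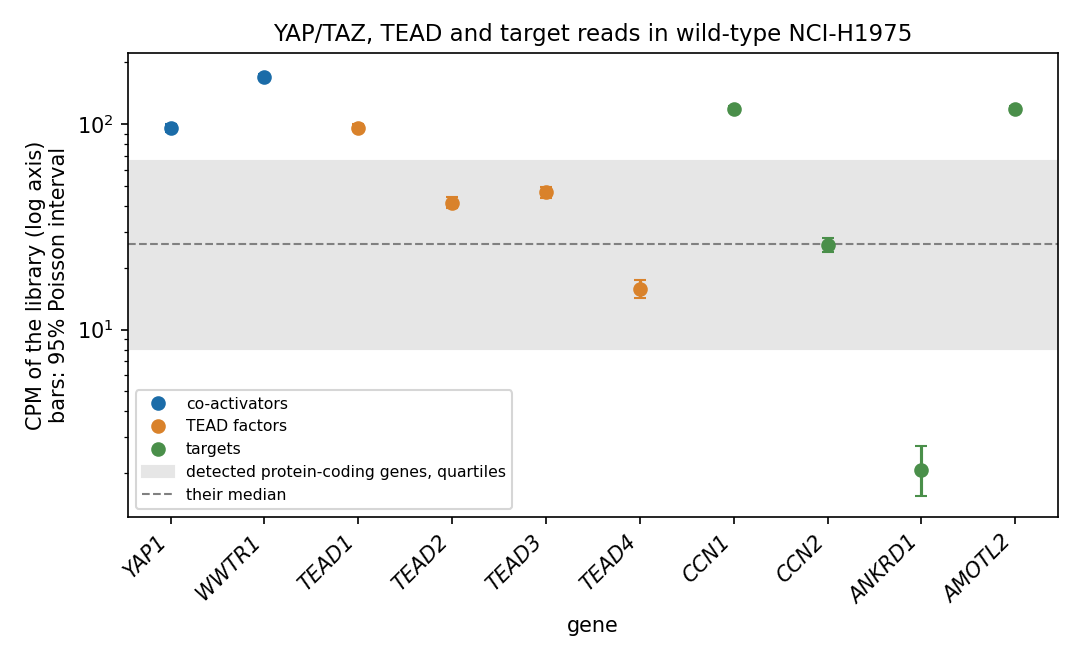
CPM of each member in the single library (vertical log axis), with 95% Poisson intervals as bars; colours mark co-activators, TEAD factors and targets, the grey band spans the quartiles of detected protein-coding genes and the dashed line is their median. WWTR1 is highest at 170 CPM and ANKRD1 is lowest at 2.08 CPM, below the band.

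Both co-activators were transcribed, and WWTR1 drew more reads than its paralogue. WWTR1, identifier ENSG00000018408.14_3, had 4251 counts, or 170 CPM (165 to 175). Its count exceeded that of 91.9% of detected protein-coding genes. YAP1, identifier ENSG00000137693.13_4, had 2395 counts, or 95.8 CPM (92.0 to 99.7), and exceeded 83.3% of them. WWTR1 thus held 64.0% (62.8 to 65.1) of the reads of the pair, and the ratio of YAP1 to WWTR1 reads was 0.563 (0.536 to 0.592). Equal transcript levels would require the WWTR1 transcripts to be 1.77 times (1.69 to 1.87) as long as those of YAP1, and no lengths were used to settle this. In RefSeq the WWTR1 locus overlaps WWTR1-AS1, an antisense RNA with 212 counts (4.99% of the WWTR1 count), and WWTR1-IT1, with 2 counts. The sources used here do not give the strand setting of the counting, so reads shared by such genes cannot be told apart. The 3 annotated YAP1 pseudogenes, YAP1P1, YAP1P2 and YAP1P3, were at 0.

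YAP1 lies beside BIRC3 and BIRC2, 2 inhibitors of apoptosis that are co-amplified with it in some carcinomas. BIRC2 had 537 counts and BIRC3 had 20, while CFAP300, the coding neighbour on the other side, had 31. The reads of this stretch were therefore uneven, with most of them on YAP1. These reads are not corrected for length, and copy number was not tested. Around WWTR1, COMMD2 had 598 counts and TM4SF4 was at 0.

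All 4 TEAD factors, the DNA-binding partners of YAP and TAZ, were detected, and TEAD1 drew the most reads. TEAD1 (ENSG00000187079.16_4) had 2404 counts, or 96.1 CPM (92.3 to 100.03). TEAD3 (ENSG00000007866.20_6) had 1163 counts, or 46.5 CPM (43.9 to 49.2), and TEAD2 (ENSG00000074219.13_4) had 1037 counts, or 41.5 CPM (39.0 to 44.1). TEAD4 (ENSG00000197905.8_5) had 393 counts, or 15.7 CPM (14.2 to 17.3). TEAD4 exceeded 37.5% of detected protein-coding genes by reads, and TEAD1 exceeded 83.4%. Of the 4997 reads of the family, TEAD1 held 48.1% (46.7 to 49.5), TEAD3 23.3% (22.1 to 24.5), TEAD2 20.8% (19.6 to 21.9) and TEAD4 7.86% (7.13 to 8.65). The family was thus spread over several members, and no member held most of the reads.

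TEAD3 exceeded TEAD2 by a ratio of 1.12 (1.03 to 1.22) in reads, a gap that a modest difference in transcript length would close. The TEAD genes are paralogues with a conserved DNA-binding TEA domain, and the sources used here do not say how reads that match several genes were treated. TEAD2 also overlaps CD37, with 51 counts, and DKKL1, with 20 counts, which equal 4.92% and 1.93% of the TEAD2 count. YAP1, TEAD1, TEAD4, CCN2 and AMOTL2 overlap non-coding RefSeq entries that matched no row by name.

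**Figure D3:**
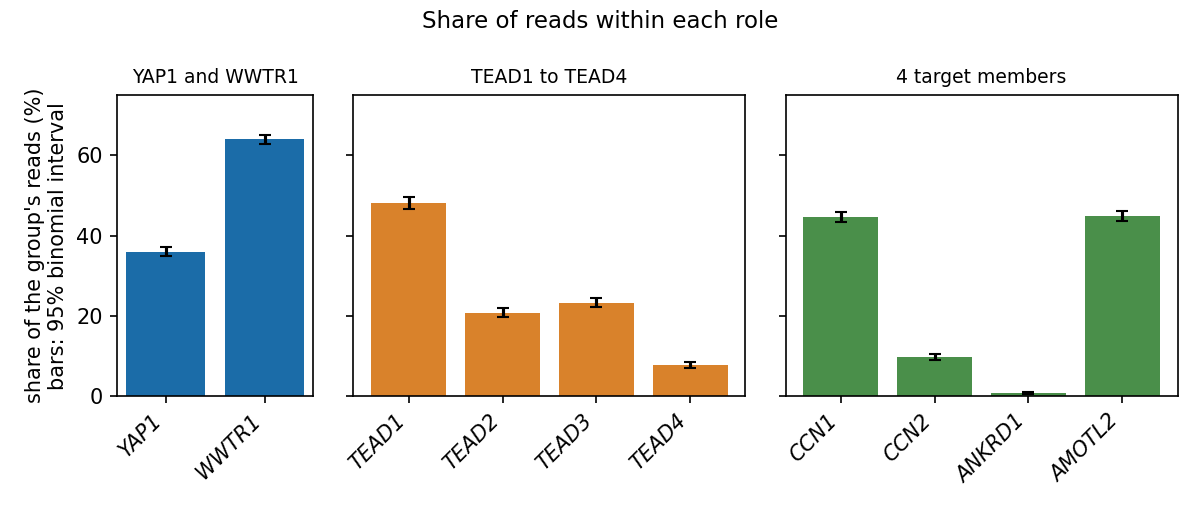
Share of reads within each role (vertical axis, percent), with 95% binomial intervals as bars; panels show the co-activator pair, the 4 TEAD factors and the 4 target members, in counts not corrected for length. WWTR1 takes 64.0% of the pair, TEAD1 takes 48.1% of its family, and ANKRD1 takes 0.784% of the targets.

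The 4 target members fell into a pair with many reads, one near the middle of detected genes and one low among them. AMOTL2, identifier ENSG00000114019.14_4, had 2971 counts, or 119 CPM (115 to 123). It encodes an angiomotin-family scaffold that binds YAP and limits it, and is also induced by it. CCN1 (formerly CYR61), identifier ENSG00000142871.16_3, encodes a secreted matricellular protein that binds integrins and has pro-angiogenic activity, and had 2962 counts, or 118 CPM (114 to 123). AMOTL2 exceeded 87.1% and CCN1 exceeded 87.0% of detected protein-coding genes by reads.

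CCN2 (formerly CTGF), identifier ENSG00000118523.5_2, is a matricellular paralogue of CCN1 linked to fibrosis. It had 646 counts, or 25.8 CPM (23.9 to 27.9), which placed it at the middle of detected protein-coding genes, with 49.6% of them below it by reads. The ratio of CCN1 to CCN2 reads was 4.59 (4.21 to 5.00). ANKRD1, identifier ENSG00000148677.6_2, encodes a nuclear ankyrin-repeat protein best known from heart and stretched muscle. It had 52 counts, or 2.08 CPM (1.55 to 2.73), and exceeded 10.7% of detected protein-coding genes by reads. ANKRD1 had 0.0805 (0.0595 to 0.107) of the CCN2 reads, so equal transcript levels would require CCN2 transcripts 12.4 times (9.36 to 16.8) as long as those of ANKRD1.

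Among the targets whose promoters are printed above, the order by TEAD matches was not the order by reads. CCN2, with 3 matches, had 646 counts, ANKRD1, with 2 matches, had 52, and AMOTL2, with 1 match before 1 of its 2 starts, had 2971. These targets were printed because they hold matches, and their reads are not corrected for length. A link between matches and level was not tested. The coding neighbours of ANKRD1, RPP30 and PCGF5, had 247 and 324 counts, both more than ANKRD1 itself. Those of CCN2, ENPP1 and MOXD1, had 88 and 0 counts, both fewer than CCN2.

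Ordered by reads, the 10 members ran WWTR1, AMOTL2, CCN1, TEAD1, YAP1, TEAD3, TEAD2, CCN2, TEAD4 and ANKRD1. Of the 9 neighbouring pairs in this order, AMOTL2 and CCN1 (ratio 1.00, 0.953 to 1.06) and TEAD1 and YAP1 (ratio 1.00, 0.948 to 1.06) did not differ beyond counting error. The ratios of the other 7 pairs had intervals above 1, and the widest gap lay between TEAD4 and ANKRD1, at 7.56 (5.65 to 10.3). With 1 library, the spread between cultures is unknown, and no gene of like pattern across samples could be sought.

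The kinases above the co-activators were all transcribed. In a list of 13 core and activating kinases and their partners, 13 were detected, beside 69.6% of protein-coding genes. The list median was 43.4 CPM, against 9.72 CPM over all protein-coding genes and 26.1 CPM over the detected ones. MAP4K4, a kinase that can activate LATS in parallel with the MST kinases, had 8095 counts, TAOK2, which phosphorylates MST kinases, had 2991, and TAOK1 had 2003. Of the LATS kinases, LATS2, which is also a YAP target, had 725 counts, or 29.0 CPM (26.9 to 31.2), and LATS1 had 391 counts, or 15.6 CPM (14.1 to 17.3). The ratio of LATS2 to LATS1 reads was 1.85 (1.64 to 2.10).

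The scaffolds and junction proteins that pass signals to LATS or to YAP were mostly present. Of 16 listed, 14 (87.5%) were detected, beside 69.6% of protein-coding genes, and the median was 42.8 CPM over all 16, against 9.72 CPM over all protein-coding genes. TRIP6, a LIM protein that inhibits LATS, had 8026 counts, NF2, the tumour suppressor merlin that recruits LATS to the membrane, had 5877 counts, and AJUBA, a LIM protein that also restrains LATS, had 4169 counts. AMOT and DCHS1 were under the minimum, with 6 and 3 counts. Within the angiomotin family the reads were therefore on AMOTL2 (2971 counts) and AMOTL1 (529 counts), and AMOT stayed under the minimum.

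Genes that hold phosphorylated YAP and TAZ in the cytoplasm or mark them for degradation had the highest list median of the 5 pathway lists. All 11 were detected, beside 69.6% of protein-coding genes. Their median was 244 CPM, against 9.72 CPM over all protein-coding genes and 26.1 CPM over the detected ones. The 14-3-3 genes YWHAZ, YWHAE and YWHAG led with 15489, 9559 and 8871 counts. The median was the value of a 14-3-3 gene, YWHAB, and the lowest 14-3-3 gene of the list, YWHAH, had 231 CPM. The listed degradation genes all lay below it by reads, with CSNK1D at 205 CPM, CSNK1E at 126, FBXW11 at 57.4 and BTRC at 24.8. BTRC was thus below the median of detected protein-coding genes. YWHA genes have processed pseudogenes, so their single values are uncertain. These abundant proteins bind many partners besides YAP.

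The vestigial-like cofactors, which compete with YAP and TAZ for TEAD, were represented by a single gene, 1 of 4 (25%), beside 69.6% of protein-coding genes detected. VGLL4, which represses TEAD targets, had 2056 counts, or 82.2 CPM (78.7 to 85.8). VGLL1, VGLL2 and VGLL3 were at 0, for which the limit of 3 counts allows up to 0.12 CPM each.

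Beyond the 4 target members, 18 further genes of a widely used YAP and TAZ target signature were read, of which LATS2 and PTPN14 also stand in the lists above. Of these 18, 17 were detected, beside 69.6% of protein-coding genes, and 14 had at least 654 counts, beside 34.8%. Their median was 50.5 CPM. MYOF, a membrane-repair ferlin, had 14876 counts, or 595 CPM (585 to 604), CRIM1, a transmembrane binder of bone morphogenetic proteins, had 3548 counts, and NT5E, the ecto-nucleotidase CD73, had 3527. FOXF2, a transcription factor of mesenchyme, was at 0, with the same limit. By reads, ANKRD1, with its 52 counts, lay below each of the 17 detected genes of this list, of which RBMS3 was lowest at 102 counts. Of the 18 genes 13 had a promoter entry, and 5 of the 13 held the TEAD letters within the 250 bases before a start. By windows this was 5 of 14, beside 11.9% of all promoter windows, and NUAK2 held 2 matches, as ANKRD1 did.

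**Figure D4:**
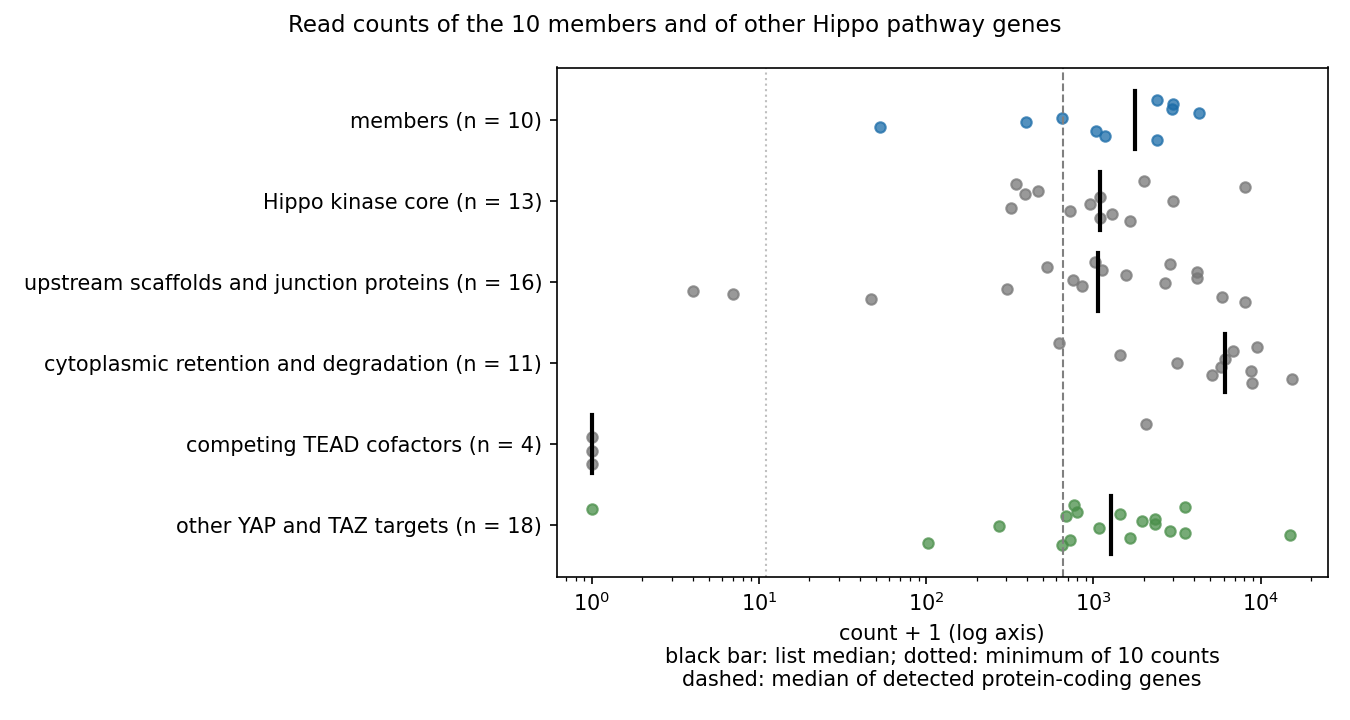
Counts plus 1 (horizontal log axis) of the 10 members, in the top line, and of the genes of 5 other Hippo pathway lists, 1 point per gene; black bars are list medians, the dashed line is the median of detected protein-coding genes (654 counts) and the dotted line the minimum of 10 counts. The members spread from 52 to 4251 counts, and 3 of the 4 vestigial-like cofactors sit at 0.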

How the data were processed

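RNA-seq of 1 wild-type NCI-H1975 library was used. Per the labels' protocols, the library was directional and made from Trizol-extracted total RNA. The authors deposited raw counts of reads for each gene, as whole numbers without normalisation. The submitters' processing notes list build hg19, featureCounts and STAR among their tools, without roles. The sources used here do not give the annotation release, the strand setting or the treatment of multi-mapping reads.

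Identifiers were matched without version to current symbols: 56373 of 60880 rows matched, holding 99.8% of counts, and protein-coding genes were taken from RefSeq (GRCh38.p14) by symbol or synonym. CPM used the total of all rows. Levels have exact (Garwood) Poisson intervals, shares exact (Clopper-Pearson) binomial intervals, and ratios of reads the matching conditional interval, which cover counting error only. No molecular identifiers were used, so reads may be copies of the same molecule. Ratios were planned per kilobase, but no transcript lengths were used, so they are ratios of reads. Motif letters were searched on both strands in the 250 bases before each RefSeq start. Protein features were planned and were not analysed here.

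The members and lists were chosen with earlier results of these data known. The rule named all members, the 3 highest genes of each list, members under 10 counts, both genes of each ratio and all VGLL genes. Other names were added after their counts were seen. Alternatives were other detection minimums, library totals and ranking pools. Interval code was tested on simulated counts. Computation used SciPy 1.17.1, pandas 2.3.3 and NumPy 2.4.6 under Python 3.11.15, and Matplotlib 3.10.9 drew the figures.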

Additional observations from a re-analysis of the deposited data

How the results depend on the processing

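All 10 members were detected at minimums of 1 count, 50 counts and 1 CPM, and the 60 other pathway genes had 54 detected at 10 counts, with 56, 53 and 54 at those minimums. The summed level of the 10 members was 731 CPM (720 to 741). It became 772 CPM without mitochondrial genes in the total, 786 without the 10 genes with the highest counts and 793 over protein-coding genes only, which multiplies every CPM by 1.06, 1.08 and 1.09 and leaves ratios of reads and shares within gene groups as they were. The share of the library taken by the members rises by the same factors. With these totals, in the same order, the CPM of 5, 7 and 8 of the 10 members left the interval given for it. The summed level left its interval with each of them. The intervals thus do not cover the choice of total. The median share of detected protein-coding genes below a member was 74.7% (73.5 to 75.8), and 77.6% among genes with at least 1 count, a pool that holds more genes of low count. ANKRD1 stood above 21.1% of that pool, against 10.7% in the other. Ratios and ranks per kilobase were not run. The depth limits ANKRD1 most, whose interval runs from 1.55 to 2.73 CPM. No paired analysis was possible because the values come from a single library.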
